A study of Homo sapiens with 12 samples.

Results

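The genes followed here encode the junctions that hold neighbouring epithelial cells together. The list named 36 genes of the tight junction, the apical polarity complexes, the adherens junction and the desmosome and was drawn up by gene name, with earlier results of these data known. Each gene was represented by the probe set that maps to its symbol alone and has the highest mean over all 12 arrays, older symbols included, and 34 of the 36 genes were measured in this way, out of 19775 genes measured in all. F11R, a tight junction immunoglobulin-like adhesion molecule, had no probe set listed in the platform annotation used here. CTNND1, which encodes the cadherin-binding p120 catenin, had only probe sets that are also assigned to a read-through transcript, so it was not analysed here.

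The cells were Caco-2, an established human colon carcinoma line that forms a polarised, enterocyte-like layer when kept confluent. All groups were at passage 22, were 21 days past confluence, and were kept for 24 h in the same insulin, transferrin and selenium-supplemented medium. The 4 groups of 3 arrays received surfactant-coated silver nanoparticles (AgPURE) at 25 µg/mL, the same particles at 2.5 µg/mL, silver ions (as AgNO3) at 0.5 µg/mL, or medium alone. No group received the surfactant alone, the particle and ion doses differ, and 3 arrays per group limit the precision. Whether the arrays of one group stem from different cultures is not stated, so the p-values below cover the spread among arrays, which may be technical.

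Tight junctions seal the space between epithelial cells near the apical surface: claudins and other membrane proteins form the strands, and cytoplasmic scaffold proteins tie the strands to actin and myosin. Adherens junctions lie below them and join cells through E-cadherin and its catenins, and desmosomes anchor the keratin filaments of neighbouring cells to each other. The Crumbs and PAR complexes, which sit beside the tight junction, define the apical domain, and in the gut the whole belt sets how much passes between the cells.

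At 25 µg/mL nanoparticles, 15 of the 34 measured junction genes differed from medium at an adjusted p below 0.05 (limma, Benjamini-Hochberg over all genes), 12 lower and 3 higher. The fallers were the claudins CLDN1, CLDN3, CLDN4 and CLDN7, the membrane proteins MARVELD2 and CXADR, the scaffolds TJP3 and CGN, the polarity gene PALS1, the adherens junction genes CDH1 and AFDN, and the plakophilin-family gene PKP4. The risers were the polarity genes PATJ and CRB3 and the desmosomal plaque gene PKP2. Over all genes, 33.4% were called in the same comparison, 19.3% lower and 14.1% higher, while the junction genes had 35.3% lower and 8.82% higher. Only 2 of the 34 junction genes averaged below the array median of 4.75 (log2). The shares over all genes cover many dimmer genes, and shares among genes of like level were not counted. The median log2 fold change of the 34 genes was -0.13, against -0.01 over all genes. The 25 µg/mL arrays lay wholly below the medium arrays for 17 junction genes and wholly above them for 9, and the shares over all genes were 25.9% and 19.8%.

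**Figure D1:**
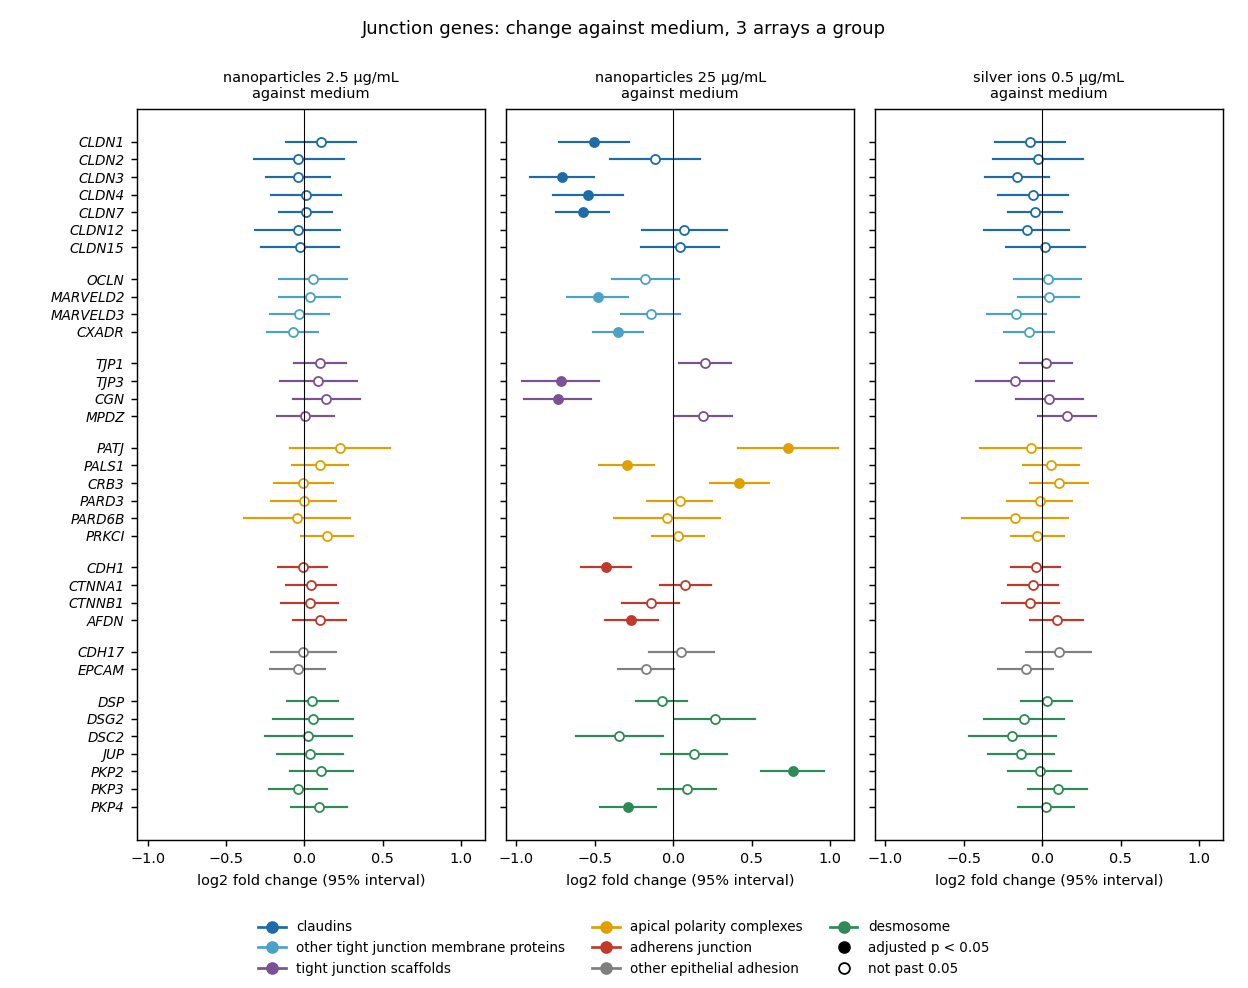
Log2 fold change against medium (x axis) of each of the 34 measured junction genes (rows, coloured by junction type) for nanoparticles at 2.5 and 25 µg/mL and silver ions at 0.5 µg/mL, with 95% intervals from limma and filled points at an adjusted p below 0.05. Filled points appear in the 25 µg/mL panel alone, with 12 to the left of 0 and 3 to the right.

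The array values carry limits that bear on the direction of these changes. The deposited values were normalised to a common scale per array, and on the 25 µg/mL arrays the 24 poly-A spike-in probe sets averaged 6.03 ± 0.41 and the 18 hybridization control probe sets 10.98 ± 0.09, against 5.41 ± 0.12 and 10.55 ± 0.11 on the medium arrays (log2, SD, n = 3). Scaling on these controls moved the median of all genes to -0.62 or -0.44, so rises and falls below are relative to the authors' normalisation, and the part of the controls in the results was not tested. The 3' minus 5' difference of ACTB, a sign of RNA integrity, was 0.56 ± 0.14 at 25 µg/mL and 0.63 ± 0.06 in medium, and that of GAPDH was 0.19 ± 0.05 and 0.15 ± 0.07 (log2, SD, n = 3). Of 8 enterocyte markers all had a probe set, and 4 fell at 25 µg/mL, among them FABP1, a fatty acid-binding protein, at -1.59, the brush border phosphatase ALPI at -1.38 and the microvillus protein VIL1 at -0.50. The summed level of the 8 lay between 1776 and 1933 on the 25 µg/mL arrays and between 2446 and 2754 on the medium arrays (linear units). The sucrase SI, the keratin KRT20 and the aminopeptidase ANPEP averaged below the array median of 4.75 in the probe sets used. Marker lists of fibroblasts (6 genes, 1 higher and 1 lower), leukocytes (5 genes, 2 lower) and endothelium (4 genes, 1 higher) had summed levels of 611 to 636, 108 to 129 and 111 to 125 at 25 µg/mL, against 653 to 819, 161 to 168 and 100 to 109 in medium. The counts of called markers stand beside 33.4% of all genes called in the same comparison, 19.3% lower and 14.1% higher. Whether any marker list differed from these shares was not tested, and calls in such short lists do not identify cell types. In a bulk sample, fewer cells of one kind and less RNA per cell cannot be told apart.

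The promoter windows of 5 genes whose changes lead the results are shown to let the called members be looked at side by side: 4 of the 5 largest falls, TJP3, CLDN3, CLDN7 and CLDN4, and the largest rise with an entry, PATJ. CGN, the remaining one of the 5, has a window inside its own annotated gene span and is not printed. Each run is the 250 bases before the annotated start, 5′ to 3′ on the gene's strand, from RefSeq on GRCh38.p14. Capitals mark CACCTG or its complement CAGGTG, the E-box bound by Snail-family repressors of epithelial genes, and TGANTCA, a pattern that includes the AP-1 site but is wider. TJP3 and CLDN7 have 2 windows each, and the one that precedes the gene span is shown.
TJP3: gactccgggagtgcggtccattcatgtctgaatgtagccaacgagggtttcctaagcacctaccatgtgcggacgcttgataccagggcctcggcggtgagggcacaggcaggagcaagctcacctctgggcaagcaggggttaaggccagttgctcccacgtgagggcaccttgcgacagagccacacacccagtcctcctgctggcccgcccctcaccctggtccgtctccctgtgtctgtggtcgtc
CLDN3: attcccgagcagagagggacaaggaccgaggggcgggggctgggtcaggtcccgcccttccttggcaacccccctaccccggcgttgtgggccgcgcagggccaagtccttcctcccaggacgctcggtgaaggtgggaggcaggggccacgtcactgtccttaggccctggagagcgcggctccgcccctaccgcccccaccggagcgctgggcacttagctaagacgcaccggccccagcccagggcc
CLDN7: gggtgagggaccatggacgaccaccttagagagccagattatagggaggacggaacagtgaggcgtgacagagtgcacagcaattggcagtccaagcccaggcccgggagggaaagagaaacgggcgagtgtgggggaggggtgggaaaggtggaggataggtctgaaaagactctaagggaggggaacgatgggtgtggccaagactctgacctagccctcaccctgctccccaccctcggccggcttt
CLDN4: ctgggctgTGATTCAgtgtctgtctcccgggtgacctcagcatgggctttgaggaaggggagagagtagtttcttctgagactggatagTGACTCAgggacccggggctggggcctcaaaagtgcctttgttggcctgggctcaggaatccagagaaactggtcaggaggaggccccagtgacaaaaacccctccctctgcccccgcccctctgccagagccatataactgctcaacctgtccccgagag
PATJ: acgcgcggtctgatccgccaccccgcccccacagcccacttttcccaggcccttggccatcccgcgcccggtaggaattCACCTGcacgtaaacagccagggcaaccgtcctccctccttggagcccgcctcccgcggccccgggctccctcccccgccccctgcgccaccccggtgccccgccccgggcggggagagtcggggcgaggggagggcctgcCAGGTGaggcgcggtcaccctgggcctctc
The windows lie at chr19:3708134-3708383 (plus strand), chr7:73770271-73770520 (minus), chr17:7263214-7263463 (minus), chr7:73830746-73830995 (plus) and chr1:61742230-61742479 (plus). CLDN3 and CLDN4 are near neighbours on chromosome 7, with gene spans of chr7:73768997-73770270 and chr7:73830996-73832690.

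The CLDN4 window held 2 TGANTCA matches and the PATJ window 2 E-boxes, while these windows of TJP3, CLDN3 and CLDN7 held neither motif. The second CLDN7 window, at the inner start, held 4 E-boxes, and the second TJP3 window held 1. Of the 25 measured junction genes with a window, 11 had an E-box, among them 3 of the 10 that fell (CLDN7, TJP3 and AFDN) and also the risers PATJ and CRB3. By window, 12 of 38 (31.6%) held CACCTG on either strand, against 17.5% of 35116 windows of the same length over all genes, and 3 of 38 (7.89%) held TGANTCA, against 6.57%. The heat shock element GAANNTTC was in 0 of the 38 windows and in 5.78% of all windows. No junction gene had both the E-box and a TGANTCA match, and a match of letters says nothing of a factor's binding.

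The claudins divided by member. CLDN3, CLDN4, CLDN7 and CLDN1, which are mostly known as sealing claudins, fell at 25 µg/mL, while the cation-channel claudins CLDN2 and CLDN15 and the calcium-permeable CLDN12 did not pass the test. CLDN3 had 6.55, 6.65 and 6.52 on the 25 µg/mL arrays, against 7.34, 7.20 and 7.29 on the medium arrays (log2 level). All 3 high-dose values lay below every medium value. The log2 fold change was -0.71 ± 0.10 (SE), a level 1.63-fold lower (limma, adjusted p = 4.11e-05). CLDN7 had 9.41, 9.48 and 9.57 at 25 µg/mL, against 9.99, 10.12 and 10.08 in medium. The groups were again apart, by a log2 fold change of -0.58 ± 0.08 (limma, adjusted p = 5.11e-05). CLDN4 had 8.57, 8.68 and 8.65 at 25 µg/mL, against 9.12, 9.21 and 9.20 in medium. Its groups did not overlap either, and it was 1.46-fold lower (log2 fold change -0.54 ± 0.10, limma, adjusted p = 0.000889). CLDN1 had 9.67, 9.36 and 9.51 at 25 µg/mL, against 10.02, 10.00 and 10.04 in medium. The medium values were tight and the high-dose values more spread, with no overlap and a log2 fold change of -0.50 ± 0.10 (limma, adjusted p = 0.00154). A second, dimmer CLDN1 probe set was at -0.42 and was not called (limma over all probe sets, adjusted p = 0.189), and a second, dim CLDN4 probe set was at 0.09 and was not called.

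Of the 3 claudins that were not called, CLDN2, a channel for sodium and water, was dim, with 4.31, 4.15 and 4.20 at 25 µg/mL and 4.46, 4.18 and 4.37 in medium, below the array median. Its log2 fold change of -0.12 had a 95% interval of -0.40 to 0.17. CLDN12 was 0.07 higher (95% interval -0.20 to 0.34) and CLDN15 0.04 higher (-0.21 to 0.29), and their arrays overlapped with medium. Of the 7 claudins, 4 were lower (57.1%) and 0 higher, against 19.3% and 14.1% of all genes. Their median log2 fold change was -0.50. It was -1.12 with poly-A scaling, -0.93 with hybridization control scaling and -0.23 when all probe sets of a gene were averaged.

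Among the other membrane proteins of the tight junction, MARVELD2 and CXADR fell and OCLN and MARVELD3 were not called. MARVELD2 encodes tricellulin, which closes the corners where 3 cells meet. It had 8.82, 8.77 and 8.95 at 25 µg/mL, against 9.41, 9.34 and 9.23 in medium. The groups did not overlap, and the level was 1.40-fold lower (log2 fold change -0.48 ± 0.09, limma, adjusted p = 0.000765). CXADR, the coxsackie and adenovirus receptor, had 10.84, 10.91 and 10.98 at 25 µg/mL, against 11.20, 11.27 and 11.32 in medium. It was lower on all 3 arrays, with a log2 fold change of -0.35 ± 0.08 (limma, adjusted p = 0.00198). A second CXADR probe set was also called lower, at -0.43 (limma over all probe sets, adjusted p = 0.00393), and a dimmer one was at -0.29 and not called. The fourth ran the other way, at 8.25, 8.39 and 8.40 at 25 µg/mL, against 7.90, 7.90 and 7.97 in medium (0.42 ± 0.12, limma over all probe sets, adjusted p = 0.0144).

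Occludin, OCLN, the first described membrane protein of the tight junction, had 11.41, 11.42 and 11.43 at 25 µg/mL, against 11.68, 11.62 and 11.50 in medium. The high-dose values lay just below the lowest medium value, and the log2 fold change of -0.18 ± 0.10 did not pass the test (limma, adjusted p = 0.208). Of 3 further OCLN probe sets, 1 had 8.42, 8.56 and 8.57 at 25 µg/mL, against 9.17, 9.15 and 9.30 in medium, a log2 fold change of -0.69 ± 0.12 (limma over all probe sets, adjusted p = 0.000317). Another was called at -0.41 and the remaining one, at -0.19, was not. All 4 OCLN probe sets were thus lower in sign and 2 of them were called, so the OCLN result depended on the probe set. MARVELD3, of the same family, differed by -0.14 (95% interval -0.33 to 0.05) with overlapping groups. Its 2 other probe sets had the opposite sign, at 0.057 and 0.425, and were not called.

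The scaffolds held the largest falls of the list. CGN, cingulin, links the tight junction to actomyosin and to a regulator of the small GTPase RhoA. It had 9.08, 9.34 and 9.43 at 25 µg/mL, against 9.97, 10.01 and 10.07 in medium. The 2.5 µg/mL arrays had 10.06, 10.13 and 10.28 and the ion arrays 9.99, 10.04 and 10.16, so the high-dose arrays stood alone below all others. Against medium, CGN was 1.67-fold lower (log2 fold change -0.74 ± 0.10, limma, adjusted p = 4.47e-05), and its second probe set fell as well, at -0.90. TJP3, which encodes ZO-3, had 6.56, 6.64 and 6.68 at 25 µg/mL, against 7.29, 7.47 and 7.28 in medium. No value overlapped, and the level was 1.65-fold lower (-0.72 ± 0.12, limma, adjusted p = 0.000199). Its second probe set was at -0.96. TJP1, which encodes ZO-1, the scaffold shared by tight and adherens junctions, had 11.39, 11.44 and 11.39 at 25 µg/mL, against 11.27, 11.20 and 11.15 in medium. All 3 values lay above medium, and the log2 fold change of 0.20 ± 0.08 missed the threshold (limma, adjusted p = 0.0593). Its second probe set passed at 0.31, and the sign of TJP1 turned under both control scalings, to -0.41 and -0.23. MPDZ, a scaffold with many PDZ domains, was dim at 4.74, 4.67 and 4.54 on the 25 µg/mL arrays and 4.50, 4.42 and 4.46 in medium, with a log2 fold change of 0.19 that was not called (limma, adjusted p = 0.109) and was negative on both control scales.

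Over claudins, other membrane proteins and scaffolds together, 8 of 15 measured tight junction genes fell (53.3%) and 0 rose, with a median of -0.35. Over all genes, 19.3% were lower and 14.1% higher, with a median of -0.01. The plot of the shares called by junction type puts the tight junction genes beside the other types.

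**Figure D2:**
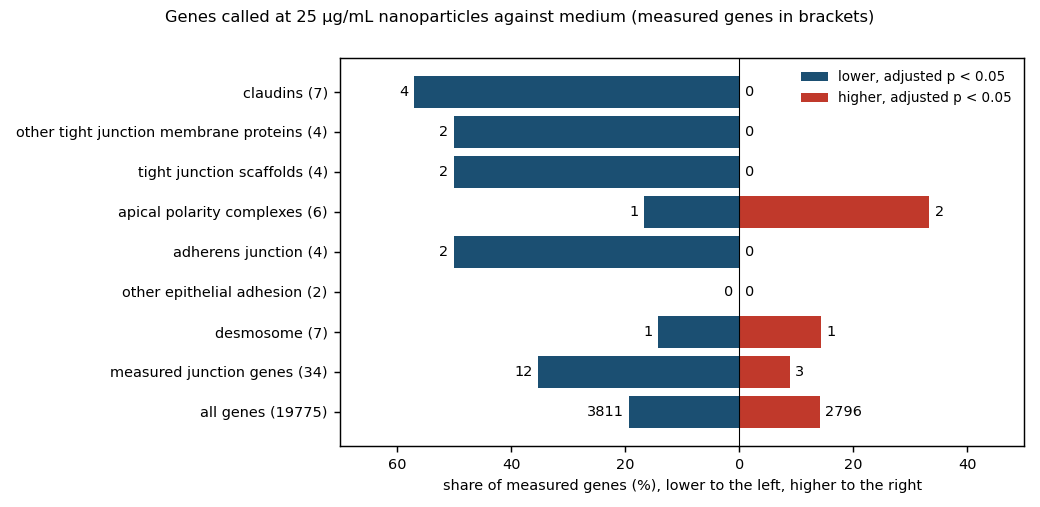
Share of measured genes (x axis, %) called lower (left) or higher (right) at 25 µg/mL nanoparticles against medium for each junction type, all measured junction genes and all 19775 genes, with the number called beside each bar. Claudins, other tight junction membrane proteins and scaffolds have 4, 2 and 2 genes lower and 0 higher, and the adherens junction has 2 lower and 0 higher. The polarity complexes and the desmosome have calls in both directions.

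The polarity genes moved in both directions. CRB3, PALS1 and PATJ encode the 3 parts of the Crumbs complex, a transmembrane anchor and 2 linked adaptors, and all 3 were called. PATJ had 6.15, 6.66 and 6.25 at 25 µg/mL, against 5.63, 5.93 and 5.30 in medium. Values were spread in both groups without overlapping, and PATJ was 1.66-fold higher (log2 fold change 0.73 ± 0.15, limma, adjusted p = 0.00147). CRB3 had 8.04, 8.04 and 8.10 at 25 µg/mL, against 7.57, 7.72 and 7.62 in medium. All 3 values were higher, by 0.42 ± 0.09 on the log2 scale (limma, adjusted p = 0.00157). PALS1 had 9.01, 9.14 and 9.06 at 25 µg/mL, against 9.39, 9.28 and 9.43 in medium. It was lower on every array, by a log2 fold change of -0.30 ± 0.08 (limma, adjusted p = 0.0116), which was not called without medium replicate 3 (adjusted p = 0.0517). A second, dimmer PALS1 probe set was at 0.0 and was not called (limma over all probe sets, adjusted p = 0.998). The PALS1 call was also lost with the mean of its probe sets and at an adjusted p of 0.01. The rises did not hold on the control scales: PATJ was 0.12 and CRB3 -0.19 with poly-A scaling, and 0.30 and -0.01 with hybridization control scaling, none of them called.

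Of 6 PATJ probe sets, another was called higher at 0.45 and 1 was called lower, at 4.60, 4.49 and 4.67 at 25 µg/mL against 4.91, 4.98 and 4.85 in medium (-0.33 ± 0.11, limma over all probe sets, adjusted p = 0.0336). The PATJ probe sets therefore disagreed in direction. The PAR complex members, the scaffold PARD3, its partner PARD6B and the atypical protein kinase C PRKCI, changed by 0.04, -0.04 and 0.03 and were not called. For PRKCI a second probe set was called, with 9.14, 9.11 and 9.29 at 25 µg/mL against 8.38, 8.31 and 8.50 in medium (0.78 ± 0.10, limma over all probe sets, adjusted p = 3.86e-05). A further PARD3 probe set was called at 0.60 and a further PARD6B probe set at -0.42. The median of the 6 polarity genes was 0.04, and it turned to -0.58 and -0.39 under poly-A and hybridization control scaling.

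In the adherens junction, CDH1 and AFDN fell and the catenins were not called. CDH1 encodes E-cadherin, the adhesive core of the junction. Its levels were 12.07, 12.04 and 11.99 at 25 µg/mL, against 12.42, 12.53 and 12.42 in medium. The 2.5 µg/mL arrays had 12.46, 12.49 and 12.39 and the ion arrays 12.42, 12.43 and 12.41, so every array outside the high dose was above it. CDH1 was 1.35-fold lower than in medium (log2 fold change -0.43 ± 0.07, limma, adjusted p = 0.000362), and a second, dimmer probe set was at -0.53. AFDN, afadin, joins nectins to actin. It had 10.07, 10.06 and 9.97 at 25 µg/mL, against 10.27, 10.35 and 10.30 in medium. The groups did not overlap, with a log2 fold change of -0.27 ± 0.08 (limma, adjusted p = 0.0159). That call was lost without medium replicate 2 or without 25 µg/mL replicate 3, with a highest adjusted p of 0.0634, and none of the other 6 AFDN probe sets was called. The AFDN call was also lost with the mean of its probe sets, with the most variable probe set and at an adjusted p of 0.01. CTNNA1, α-catenin, differed by 0.08 (95% interval -0.08 to 0.24).

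CTNNB1, β-catenin, binds the tail of E-cadherin and is also the effector of Wnt signalling. It had 10.51, 10.63 and 10.72 at 25 µg/mL, against 10.74, 10.80 and 10.74 in medium, and its log2 fold change of -0.14 was not called (limma, adjusted p = 0.232). One of 2 other CTNNB1 probe sets was, at -0.65 ± 0.10. Outside the classical junctions, the intestinal cadherin CDH17 differed by 0.05 (95% interval -0.16 to 0.26). EPCAM, an epithelial adhesion molecule that binds claudins, had 13.03, 13.01 and 13.03 at 25 µg/mL and 13.20, 13.19 and 13.20 in medium. Both groups were narrow and apart, and the difference of -0.17 ± 0.08 was not called (limma, adjusted p = 0.127).

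The desmosome had 1 rise and 1 fall among 7 genes (28.6% called, against 33.4% of all genes). PKP2, plakophilin 2, links desmosomal cadherins to desmoplakin. Its levels were 10.18, 10.27 and 10.21 at 25 µg/mL, against 9.43, 9.66 and 9.29 in medium. The 2.5 µg/mL arrays had 9.52, 9.65 and 9.53 and the ion arrays 9.50, 9.43 and 9.40, all below the high dose. PKP2 was 1.69-fold higher than in medium (log2 fold change 0.76 ± 0.09, limma, adjusted p = 2.14e-05), the largest change in either direction among the 34 genes. It was 0.15 and 0.33 and not called under the poly-A and hybridization control scalings. A second, dim PKP2 probe set was at 0.21 and was not called (limma over all probe sets, adjusted p = 0.2). PKP4, a plakophilin relative found at desmosomes and adherens junctions, had 9.46, 9.52 and 9.40 at 25 µg/mL, against 9.67, 9.85 and 9.72 in medium. It was lower on all 3 arrays (-0.29 ± 0.08, limma, adjusted p = 0.0147), and the call was lost without medium replicate 2 or 25 µg/mL replicate 3, with a highest adjusted p of 0.0721. The PKP4 call was also lost with the mean of its probe sets, with the most variable probe set and at an adjusted p of 0.01. A second PKP4 probe set was called at -0.39, and the others, at -0.07, -0.23 and 0.08, were not.

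The desmosomal cadherins differed in sign. DSC2, desmocollin 2, had 8.84, 8.81 and 8.33 at 25 µg/mL, against 9.03, 9.14 and 8.84 in medium, with replicate 3 the lowest of its group. Its log2 fold change was -0.35 ± 0.13 (limma, adjusted p = 0.0535), just outside the threshold. A second, dimmer DSC2 probe set was called lower, at -0.30 (limma over all probe sets, adjusted p = 0.029), and the other 2 were not called. DSG2, desmoglein 2, had 9.81, 9.93 and 9.83 at 25 µg/mL, against 9.69, 9.71 and 9.38 in medium. All 3 values were above medium, and the difference of 0.27 ± 0.12 was not called (limma, adjusted p = 0.107), while a second DSG2 probe set was, at 0.50 ± 0.11. Desmoplakin, DSP, the keratin anchor, differed by -0.07 (95% interval -0.24 to 0.09). Plakoglobin, JUP, shared by desmosomes and adherens junctions, differed by 0.13 (-0.08 to 0.34) and PKP3 by 0.09 (-0.10 to 0.27), and DSG2, JUP and PKP3 were all negative on both control scales. The median of the 7 was 0.09, and it turned to -0.53 and -0.34 under the poly-A and hybridization control scalings.

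**Figure D3:**
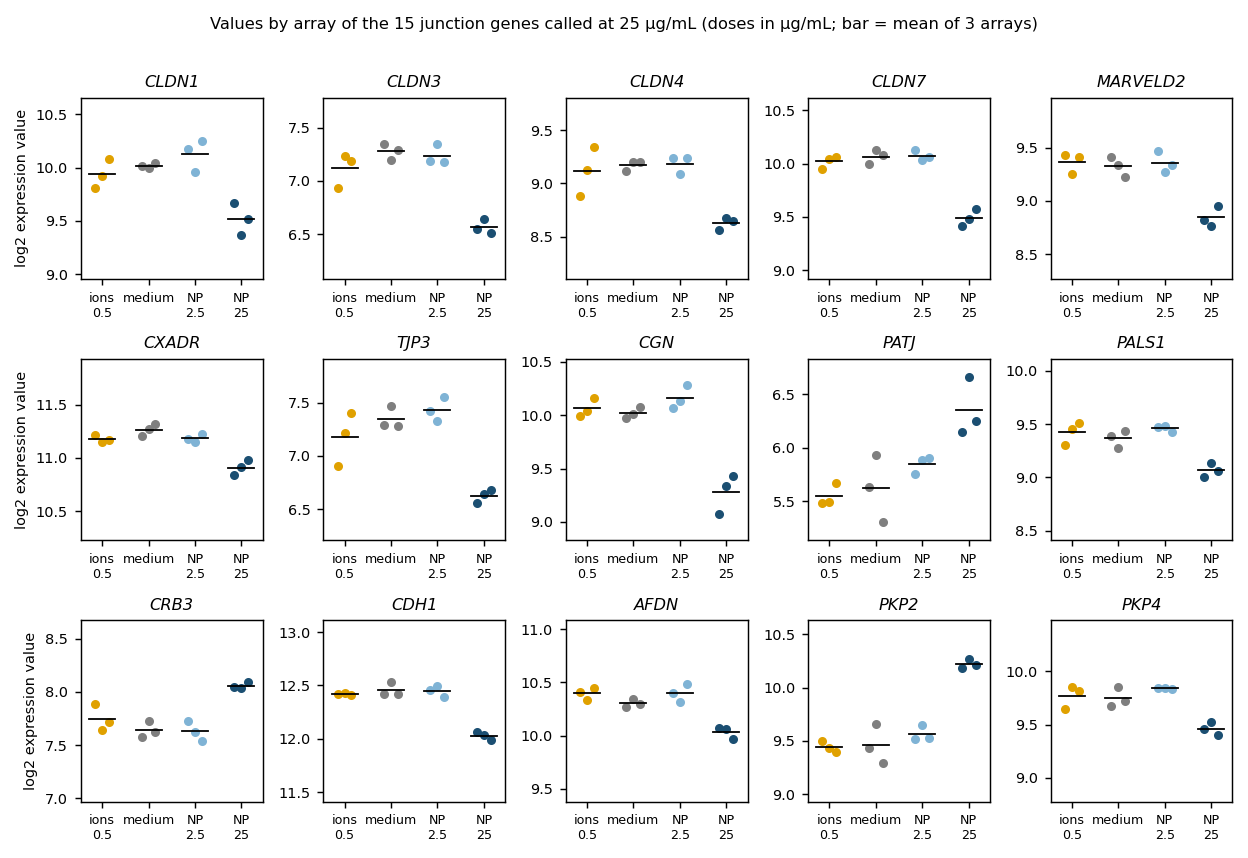
Log2 expression value (y axis, one scale length but different offsets per panel) on each array of the 15 called junction genes, for silver ions at 0.5 µg/mL, medium, and nanoparticles at 2.5 and 25 µg/mL, with a bar at the mean of 3 arrays. In all 15 panels the 3 high-dose points lie outside the range of the medium points, below it in 12 and above it in 3.

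The 34 genes had 87 probe sets in all, and 26 genes had more than 1. Tested over all probe sets of the array, 35 of the 87 were called at 25 µg/mL against medium, 25 lower and 10 higher. Among all 41091 probe sets with a single symbol, 28.0% were called in that fit, 15.5% lower and 12.5% higher. Of 13 called genes with another probe set, 8 had one called the same way, and 2, CXADR and PATJ, had one called the opposite way. Of 13 genes that were not called and had another probe set, 9 had one that was called. The largest change of any junction probe set was the second of CLDN3, at 4.97, 5.53 and 5.41 on the 25 µg/mL arrays, against 6.89, 7.12 and 7.14 in medium. It was 3.35-fold lower, whereas the CLDN3 probe set used above, whose suffix marks possible cross-hybridization, was 1.63-fold lower. CLDN15, not called on its brighter probe set, had a second at 6.24, 5.88 and 5.60 at 25 µg/mL, against 4.84, 5.19 and 4.96 in medium. That one was 0.91 ± 0.14 higher on the log2 scale (limma over all probe sets, adjusted p = 0.000153).

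**Figure D4:**
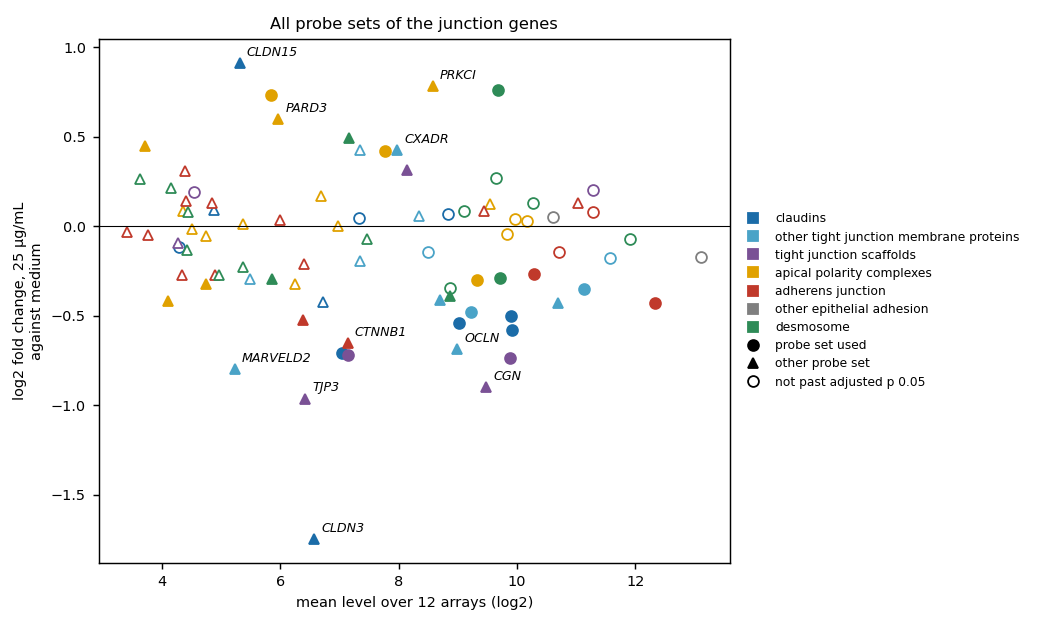
Log2 fold change at 25 µg/mL nanoparticles against medium (y axis) of all 87 probe sets of the junction genes by their mean log2 level over 12 arrays (x axis), coloured by junction type, with circles for the probe set used per gene, triangles for the others, and filled marks at an adjusted p below 0.05. Filled marks lie on both sides of 0, with 25 below and 10 above, and the second CLDN3 probe set is the lowest point.

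The high dose was also set against the low dose and against the ions. These comparisons share the high-dose arrays with the one above, so they are not separate evidence of the same change. Against 2.5 µg/mL, 16 junction genes were called, 13 lower and 3 higher (limma), where 34.0% of all genes were called, 20.3% lower and 13.7% higher. The arrays did not overlap for 17 lower and 5 higher junction genes (25.7% and 19.6% of all genes). The 13 were the 12 that fell against medium and DSC2, which had 8.84, 8.81 and 8.33 at 25 µg/mL, against 9.06, 9.12 and 8.91 at 2.5 µg/mL (-0.37 ± 0.13, adjusted p = 0.0398 by limma). The 3 higher were PATJ, CRB3 and PKP2 again. CGN was 1.84-fold lower than at 2.5 µg/mL (-0.88 ± 0.10), TJP3 1.75-fold lower (-0.81 ± 0.12) and PKP2 1.57-fold higher (0.65 ± 0.09).

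Against silver ions at 0.5 µg/mL, a different dose of a different form of silver, 16 junction genes were called, 12 lower and 4 higher (limma), with 32.3% of all genes called, 18.6% lower and 13.7% higher. The arrays did not overlap for 13 lower and 7 higher junction genes (24.3% and 18.8% of all genes). CGN was 1.72-fold lower than with ions (-0.78 ± 0.10), CLDN3 1.46-fold lower (-0.55 ± 0.10), and PATJ 1.75-fold higher (0.81 ± 0.15). The fourth gene called higher, beside PATJ, CRB3 and PKP2, was DSG2, at 9.81, 9.93 and 9.83 at 25 µg/mL against 9.24, 9.48 and 9.72 with ions (0.38 ± 0.12, limma, adjusted p = 0.0241). Ion replicate 1 was the low one for several genes, such as CLDN4 at 8.88 against 9.12 and 9.34 on the other ion arrays and TJP3 at 6.91 against 7.21 and 7.40, and the median level of the 34 genes was 9.57 there and 9.84 and 9.86 on the others. Without that array the counts were again 12 lower and 4 higher. Without ion replicate 2 they were 13 lower and 2 higher. A test over all 4 groups called 15 of the 34 genes, against 31.8% of all genes.

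At the low dose and with ions, no junction gene could be separated from medium. At 2.5 µg/mL, 0 of 34 junction genes and 0% of all genes were called by limma, and 0 junction genes had an unadjusted p below 0.05 (4.55% of all genes did). The log2 fold changes of the 34 ran between -0.08 for CXADR and 0.23 for PATJ, with a median of 0.03. The widest of their 95% intervals reached -0.39 and 0.55. Arrays did not overlap for 1 gene higher, PRKCI, and 1 lower, EPCAM (5.45% and 4.51% of all genes). With silver ions, limma also called 0 of 34, with 0 at an unadjusted p below 0.05 (6.24% of all genes). The log2 fold changes ran between -0.19 for DSC2 and 0.16 for MPDZ, with intervals reaching -0.51 and 0.34 and a median of -0.04. MPDZ was wholly above medium and MARVELD3 wholly below it (5.32% and 5.13% of all genes). Between 2.5 µg/mL and ions, 0 of 34 were called by limma, and TJP3 (0.26) and PRKCI were the 2 with an unadjusted p below 0.05 (8.77% of all genes). Arrays did not overlap for 5 genes higher at 2.5 µg/mL and 0 lower (6.39% and 6.98% of all genes). For the claudins, the 95% intervals of the changes against medium lay within -0.32 and 0.33 at 2.5 µg/mL and within -0.37 and 0.27 with ions.

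Other genes of the same structures, listed with earlier results of these data known, changed in both directions at 25 µg/mL (limma throughout). Their counts stand beside the shares over all genes, 33.4% called, 19.3% lower and 14.1% higher, and no list was tested against these. Of 14 further claudins, 2 fell and 1 rose (14.3% and 7.14%). CLDN19, known from the kidney and the eye, had 7.48, 7.70 and 7.52 at 25 µg/mL, against 8.44, 8.41 and 8.53 in medium, a log2 fold change of -0.89 ± 0.11 (adjusted p = 2.68e-05). CLDN23 fell by 0.28, and CLDN17 was 0.36 higher, or -0.25 and -0.06 on the poly-A and hybridization control scales. Of 17 further tight junction genes, 3 fell and 3 rose (17.6% each). CGNL1, paracingulin and the relative of cingulin, had 4.84, 4.96 and 5.03 at 25 µg/mL, against 5.72, 5.93 and 5.97 in medium (-0.93 ± 0.13, adjusted p = 5.34e-05). AMOT, angiomotin, an adaptor that binds PATJ, fell by 0.55, and SYMPK, a nuclear and plaque protein of RNA processing, was 0.63 higher. On the poly-A and hybridization control scales SYMPK was at 0.02 and 0.21 and was not called.

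Of 14 further adherens junction genes, 1 rose and 1 fell (7.14% each, beside 14.1% higher and 19.3% lower over all genes). VCL, vinculin, which reinforces cadherin and integrin sites under tension, had 11.63, 11.62 and 11.62 at 25 µg/mL, against 10.42, 10.49 and 10.42 in medium. It rose by 1.18 ± 0.08 on the log2 scale (adjusted p = 5.77e-08) and was 0.57 and 0.76 higher, and still called, on the poly-A and hybridization control scales. PLEKHA7, which ties the adherens junction to microtubules, had 7.06, 6.94 and 6.93 at 25 µg/mL, against a mean of 8.03 and a highest value of 8.07 in medium (-1.06 ± 0.11, adjusted p = 3e-06). Of 9 further desmosome genes 22.2% were called: PERP, a desmosomal membrane protein and p53 target, fell by 0.59 and DSC3 was 0.41 higher, with DSC3 turning to -0.21 and -0.02 on the poly-A and hybridization control scales. Of 7 keratins, the desmosome's filament partners, 28.6% were called: KRT19 fell by 0.53 and KRT18 was 0.32 higher, or -0.29 and -0.10 on the 2 control scales.

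**Figure D5:**
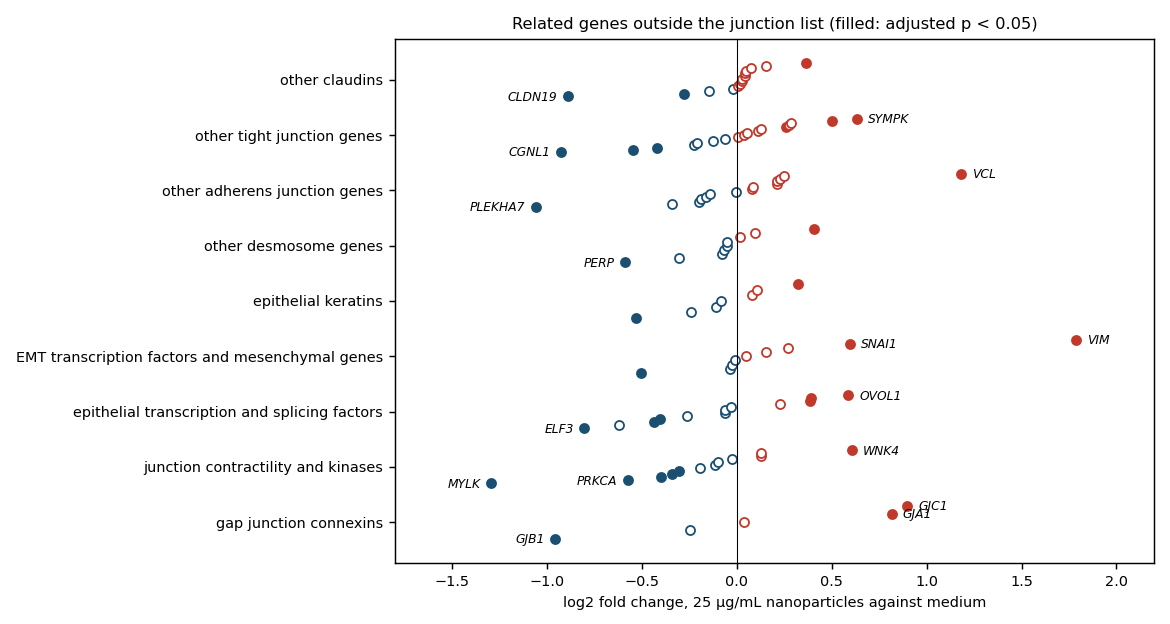
Log2 fold change at 25 µg/mL nanoparticles against medium (x axis) of related genes outside the junction list, by group (rows), with filled points at an adjusted p below 0.05 and names for the largest called changes. VIM at 1.79 and VCL at 1.18 lie farthest to the right, and MYLK at -1.30 and PLEKHA7 at -1.06 farthest to the left.

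Genes that act on junctions were counted in the same comparison. Of 9 transcription factors and mesenchymal genes linked to epithelial-mesenchymal transition, 2 rose and 1 fell (33.3% called, against 33.4% of all genes). VIM, the mesenchymal filament vimentin, had 7.34, 7.55 and 7.59 at 25 µg/mL, against 5.40, 5.95 and 5.76 in medium, a rise of 1.79 ± 0.17 (limma, adjusted p = 1.58e-06) that was 1.17 and 1.36 on the poly-A and hybridization control scales. SNAI1, the Snail repressor of CDH1 and claudin genes, had 6.47, 6.27 and 6.19 at 25 µg/mL, against 5.68, 5.84 and 5.63 in medium. It was higher by 0.60 ± 0.13 (limma, adjusted p = 0.00193), a difference that was -0.02 on the poly-A scale and 0.17 on the hybridization control scale. SNAI3 fell by 0.51. N-cadherin, CDH2, was at 4.93, 4.53 and 4.45 at 25 µg/mL and 4.53, 4.41 and 4.34 in medium, near the array median, and was not called (limma, adjusted p = 0.283).

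Of 12 epithelial transcription and splicing factors, 3 rose and 3 fell (25.0% each), beside 14.1% higher and 19.3% lower over all genes. Among them were the ETS factor ELF3 at -0.80, the intestinal factor CDX2 at -0.44 and OVOL1 at 0.59, or -0.03 on the poly-A scale. Of 12 genes of junction contractility and kinases, 5 fell and 1 rose (41.7% and 8.33%, beside the same 19.3% and 14.1%). MYLK, the myosin light chain kinase that tightens the actomyosin ring under the junction, had 6.58, 6.75 and 6.85 at 25 µg/mL, against 7.90, 8.05 and 8.12 in medium (-1.30 ± 0.13, limma, adjusted p = 2.4e-06). PRKCA fell by 0.57, and the kinase WNK4 was 0.61 higher, or -0.01 on the poly-A scale. Of 5 gap junction connexins, GJC1 and GJA1 were 0.90 and 0.82 higher and GJB1, the main connexin of liver epithelium, was lower, with 6.86, 6.57 and 6.88 at 25 µg/mL against 7.65, 7.75 and 7.78 in medium (-0.96 ± 0.12, limma, adjusted p = 2.02e-05). On the poly-A scale GJC1 and GJA1 were at 0.29 and 0.20 and were not called.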

How the data were processed

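One Affymetrix 3' expression array was run for each of 12 Caco-2 samples, with 250 ng of total RNA labelled, per the labels. The table deposited by the authors gives a log2 expression level for each probe set. The submitters' processing notes name RMA and Partek, per the labels. Their versions and options were not given in the sources used here. The table has no detection calls.

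The 54675 probe sets comprised 62 controls, 41091 assigned to a single symbol, 1801 assigned to several symbols and 11721 without a listed gene. A gene was read from the single-symbol probe set of highest mean over the 12 arrays. limma 3.58.1 in R 4.3.3 was fitted to all 19775 genes in 1 model of 4 groups (8 residual and 6.25 prior degrees of freedom), with 6 contrasts tested two-sided and an F test, and Benjamini-Hochberg adjustment at 0.05. Errors of log2 fold changes are limma's standard errors. The model was also run on simulated data with independent noise. Those data had no shift of whole arrays, so that run does not bear on the control probe sets. The table had 0 columns of no sample.

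The members and lists were chosen with earlier results of these data known. Full values were given for called members among the 3 largest changes of their junction type and for members that other probe sets contradict, and for up to 3 called genes of each further list. CLDN1, members that missed the threshold and CDH2 were added after their values were seen. Alternatives were quantile normalization, median centring, scaling on the poly-A or hybridization controls, no dim genes, the mean or most variable probe set, a test of every probe set, trend, robust and array-weight fits, an adjusted p of 0.01, fits limited to the groups in question, and each array left out in turn. Promoter windows came from RefSeq on GRCh38.p14, and figures were drawn with matplotlib 3.10.9 in Python 3.11.15.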

Additional observations from a re-analysis of the deposited data

Results flagged for a closer look

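Control probe sets, which are not part of the gene comparisons, were higher on the 25 µg/mL arrays than on the medium arrays. The 24 poly-A control probe sets averaged 6.03 at 25 µg/mL and 5.41 in medium, a difference of 0.61 on the log2 scale. On 25 µg/mL replicates 1, 2 and 3 the poly-A means were 6.21, 5.56 and 6.31, so replicate 2 lay near the highest medium array at 5.54. The 18 hybridization control probe sets averaged 10.98 at 25 µg/mL and 10.55 in medium, a difference of 0.43. Each difference had an exact permutation p of 0.1, two-sided, the smallest that 3 against 3 arrays can give. Their part in the junction gene results was not tested.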

How the results depend on the processing

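Precision is limited by 3 arrays per group. Directions rest on the normalization: scaling on control probe sets moved the median of all genes by more than 0.4, and no junction gene was then called higher at 25 µg/mL. No paired analysis was possible because the labels give the samples letters and no shared replicate numbers. The comparisons that called 0 junction genes stayed at 0 under every alternative run.

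At 25 µg/mL against medium, the 15 genes called (12 lower, 3 higher) became 27 (27 and 0) with poly-A and 26 (26 and 0) with hybridization control scaling; the higher calls were 6 with the probe-set mean, 9 with the most variable probe set and 5 with array weights. Against 2.5 µg/mL, 16 (13 lower, 3 higher) became 31 (31 and 0) with poly-A scaling, 20 lower and 0 higher with hybridization control scaling, and 8 higher with the most variable probe set. Against ions, 16 (12 lower, 4 higher) became 31 (31 and 0) and 25 (25 and 0) on these scales, 7 lower and 10 higher with the probe-set mean, 11 higher with the most variable probe set and 2 higher at an adjusted p of 0.01. The test over 4 groups called 30 with poly-A scaling.

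Leaving out each array in turn gave 13 to 16 genes against medium (10 to 13 lower, 3 to 4 higher), 14 to 16 against 2.5 µg/mL (12 to 13 and 2 to 3), 15 to 17 against ions (11 to 13 and 2 to 5) and 14 to 16 over 4 groups. The medians of the changes against medium then ran from -0.14 to -0.10 over all junction genes, -0.51 to -0.43 for claudins, -0.29 to -0.24 for other membrane proteins, -0.27 to -0.24 for scaffolds, 0.01 to 0.06 for polarity genes, -0.22 to -0.19 for the adherens junction, -0.08 to -0.05 for CDH17 and EPCAM, and 0.06 to 0.11 for the desmosome.

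With poly-A and hybridization control scaling the medians were -0.74 and -0.56 over all junction genes, -1.12 and -0.93 for claudins, -0.88 and -0.69 for other membrane proteins, -0.88 and -0.69 for scaffolds, -0.58 and -0.39 for polarity genes, -0.82 and -0.63 for the adherens junction, -0.68 and -0.49 for CDH17 and EPCAM, and -0.53 and -0.34 for the desmosome. Over all junction genes the median was -0.16 with median centring, -0.14 without dim genes and with array weights, -0.11 with the probe-set mean and -0.10 with the most variable probe set. The probe-set mean and the most variable probe set gave 0.15 and 0.51 for polarity, -0.073 for the desmosome with either, and -0.38 and -0.49 for scaffolds. The mean gave -0.23 for claudins. The most variable probe set gave -0.13 for other membrane proteins and -0.40 for the adherens junction. Scaffolds were at -0.72 without dim genes, and CDH17 and EPCAM at -0.10 with quantile normalization.

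Among the genes named in the text, signs turned under poly-A and hybridization control scaling for CLDN12 (-0.54, -0.36), CLDN15 (-0.57, -0.38), CRB3 (-0.192, -0.006), PARD3 (-0.57, -0.39), PRKCI (-0.58, -0.40), TJP1 (-0.41, -0.23), MPDZ (-0.42, -0.24), DSG2 (-0.35, -0.16), JUP (-0.48, -0.30), PKP3 (-0.53, -0.34), CTNNA1 (-0.54, -0.35), CDH17 (-0.56, -0.38), CLDN17 (-0.250, -0.064), DSC3 (-0.21, -0.02), KRT18 (-0.29, -0.10) and COL1A2 (-0.271, -0.085). Under poly-A scaling alone they turned for SNAI1 (-0.015), OVOL1 (-0.026) and WNK4 (-0.008). With the most variable probe set CXADR was at 0.42 and OVOL1 at -0.49. The cause was not tested for any of these.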
